A study of Mus musculus with 19 samples.

Results

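Lavage cells of wild type mice were compared 1 h after aspiration of bacterial particles with those of naive wild type mice, across every gene of the deposited tables. The libraries were chosen by label alone, which gave 9 of the 19 in the series: 5 exposed and 4 naive. All 9 mice were female C57Bl/6J of 7 to 8 weeks. Exposed mice had received 100 µL of Staphylococcus aureus bioparticles (dead bacterial fragments) at 2.27 mg/mL by the oropharyngeal route under inhaled isoflurane. The particles carry pHrodo, a dye that brightens in acid compartments and so reports uptake into phagosomes. The labels do not say whether the naive mice had isoflurane or a vehicle, so particles, fluid and anaesthetic cannot be told apart. Airspace cells were recovered from both groups with phosphate-buffered saline containing 2 mM EDTA, frozen as a pellet and processed without a described sort. The other 10 libraries came from ICAM-1 null mice, 5 exposed and 5 naive, and shared the model that estimated the spread. The deposited tables held 56941 genes, of which 20501 passed the filter on low counts and were tested.

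Alveolar macrophages are the resident phagocytes of the airspace. They take up inhaled particles through scavenger, complement and Fc receptors, and they sense S. aureus mainly through TLR2 with its co-receptor CD14, which signals through MyD88, IRAK and TRAF6 to the NF-kB and MAP kinase pathways. Early target genes of these pathways encode neutrophil chemoattractants and cytokines together with the inhibitors that later end the signal, and many of these transcripts are short-lived.

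Total estimated counts were 32.8 to 41.0 M in wild type naive libraries 1 to 3, 80.3 M in naive library 4 and 42.6 to 61.0 M in the exposed libraries. Over the 2000 genes of highest variance, principal component 1 took up 52.1% of the variance and placed the naive libraries between -69.6 and -54.0 and the exposed ones between 44.5 and 57.5. The scaling between libraries matters for small changes. TMM factors were 1.15 to 1.17 in naive and 0.87 to 0.96 in exposed libraries, and the median log2 fold change of all tested genes was 0.02 with them, -0.34 when libraries were scaled to their totals alone and -0.34 on the log2(TPM + 1) scale. Beside the counts of a list, numbers up and down are also given for scaling to library totals where that moved a count by over 1.5 times or the share of rises among calls by over 10 percentage points. The same is done, in numbers or words, for fits that kept naive library 4 alone of the naive libraries, or left out 1 library, where a count moved by over 1.5 times. Fold changes below are TMM-scaled log2 values from edgeR, levels are TPM (transcripts per 1 M, which corrects for transcript length), and ± is the SD over 4 naive or 5 exposed libraries.

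The makeup of the pellets was checked with markers, and Icam1 checked the genotype labels, at 63.8 to 1079 TPM in the 9 wild type and 4.88 to 13.2 TPM in the 10 null libraries. Chil3, a chitinase-like protein made in bulk by alveolar macrophages, stood at 15188 ± 1381 TPM in naive and 14622 ± 1438 TPM in exposed libraries, and Car4, Marco, Pparg and Siglecf were all present. Epithelial markers were higher after exposure: 23 rose, 0 fell and 6 did not pass of 29 tested (19 up and 3 down with library totals, 12 up and 0 down with naive library 4 alone and 1 down without exposed library 2 or 5 or naive library 2 or 4), and their summed level ran from 1135 to 1477 TPM in naive and from 1735 to 4129 TPM in exposed libraries. Without Scgb1a1, the most abundant epithelial marker, the mean sum went from 1013 to 1244 TPM, against 1260 to 2510 TPM with it. Krt13, a keratin of stratified squamous epithelium, was at 0 counts in all 4 naive libraries and at least 28.3-fold higher after exposure. Red cell and platelet markers summed from 139 to 414 TPM in naive and from 373 to 2403 TPM in exposed libraries, with 5 rose, 0 fell and 3 did not pass of 8 (0 up and 0 down with naive library 4 alone). Neutrophil markers summed from 249 to 353 TPM in naive and from 279.8 to 385 TPM in exposed libraries, with 7 rose, 1 fell and 4 did not pass of 12 (3 up and 2 down with library totals, 1 up and 1 down with naive library 4 alone and 4 up without exposed library 5), and Ly6g, a defining neutrophil gene, did not reach the filter on low counts. Without Wfdc21 the mean sum of neutrophil markers went from 101 to 135 TPM, against 305 to 349 TPM with it. Monocyte and interstitial macrophage markers summed from 849.9 to 930.0 TPM in naive and from 1645 to 2100.1 TPM in exposed libraries. Without Cd14, which macrophages also express, their mean sum went from 795 to 934 TPM, against 892 to 1838 TPM with it. Of these 18 markers 11 rose, 0 fell and 7 did not pass (6 up and 2 down with library totals and 5 up and 0 down with naive library 4 alone), and Ccr2 stood at 5.14 ± 1.17 and 3.49 ± 0.53 TPM. Of 19 lymphocyte markers 9 rose, 1 fell and 9 did not pass (1 up and 1 down with library totals). With naive library 4 alone there were fewer rises than in the full fit. Their sums ran from 919 to 1127 TPM in naive and from 838 to 1000.3 TPM in exposed libraries. Without Cd2, the most abundant of them, the mean sum went from 522 to 598 TPM, against 1018 to 914 TPM with it. The part of these cells in the changes below was not tested, and in a bulk pellet more cells of a type cannot be told apart from more RNA per cell.

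Within 1 h the transcriptome changed at 8245 genes, 40.2% of those tested, at an adjusted p under 0.05. Of these, 4111 were higher (20.1%) and 4134 lower (20.2%), and the counts of every list are to be read against these shares. The rises were steeper than the falls: 934 genes (4.56%) were higher by a log2 fold change of at least 2, and 345 (1.68%) were lower by as much. At a size of at least 1 the numbers were 1918 (9.36%) and 1380 (6.73%). Many changes of at least 2 were in genes of low level. Among protein-coding genes 700 rose and 108 fell by at least 2, of which 273 and 30 were at 5 TPM or more. Falls of that size made up 3.43% of 6377 genes under 1 TPM and 0.35% of 4253 at 20 to 100 TPM. Rises of that size made up 7.01% and 2.77% of the same genes, and a larger share than the latter above 100 TPM. The 934 genes held 1.22% to 1.30% of all TPM in the naive libraries and 9.34% to 11.7% in the exposed ones. The TPM values of both groups did not overlap at 8238 genes (40.2%). The 12 largest rises at 10 TPM or more with no overlap were led by Psca, a surface antigen of squamous and other epithelia that was at 0 counts in naive libraries and at least 22.3-fold higher, and by Cxcl1, Il23a, Cxcl2, Ereg and Il1bos. The transcript Il1bos overlaps Il1b on the opposite strand, and the counting has a strand setting not given in the sources used here, and reads of both cannot be told apart. The other 6 were Cxcl3, Ptgs2, Ccl3, Inhba, Tnf and Egr3.

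**Figure D1:**
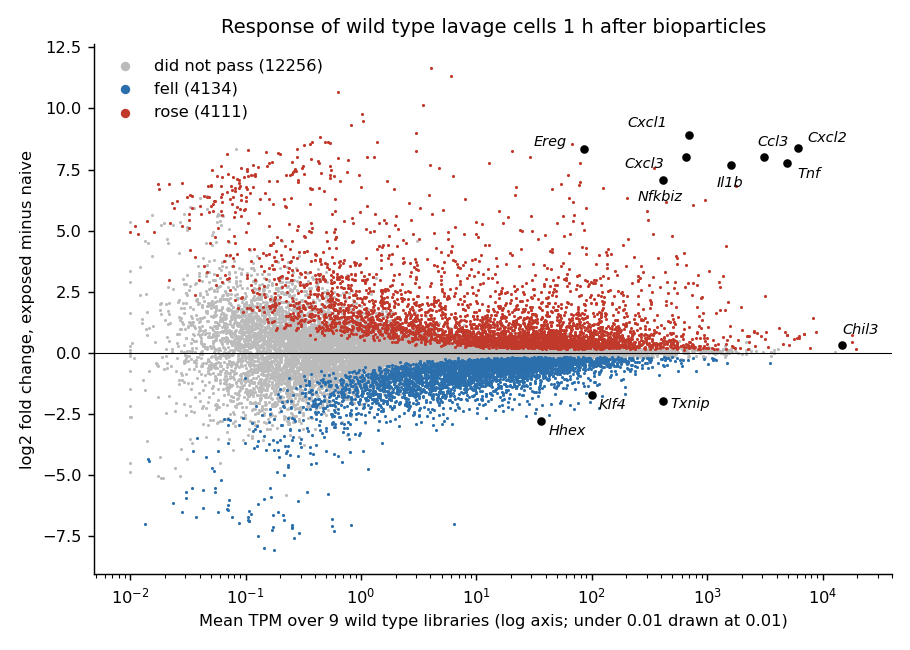
Log2 fold change (exposed minus naive wild type, TMM-scaled) of the 20501 tested genes against their mean TPM over the 9 wild type libraries, on a log axis, with rises in red, falls in blue and the remaining genes in grey. The 4111 rises reach further from 0 than the 4134 falls, and the named chemokine and cytokine genes lie above 6 at the top of the plot.

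CXC chemokines draw neutrophils through the receptors CXCR1 and CXCR2. The ligands encoded side by side on chromosome 5 showed the steepest rises. Cxcl1 (chromosome 5) stood at 0.72, 2.23, 2.86 and 5.68 TPM in naive libraries 1 to 4 and at 1228, 898, 1173, 1283 and 1620.4 TPM in exposed libraries 1 to 5, which is a change of 8.93 (SE 0.40, adjusted p = 1.8e-13) on the log2 scale. Cxcl2 went from 17.4, 37.2, 35.0 and 72.7 TPM to 12351, 8134, 10135, 11058 and 13251 TPM (8.40 (SE 0.36)), which placed it among the 10 most abundant transcripts of the exposed cells. For Cxcl3 the naive values were 3.58, 6.44, 6.81 and 7.49 TPM and the exposed values 1211, 941, 1122, 1283 and 1325 TPM (8.02 (SE 0.25)). In each of these 3 genes naive library 4 was the highest of its group. Cxcl10, a ligand of CXCR3 on T cells and an interferon-inducible gene, rose from 4.52 ± 2.92 to 114 ± 34.3 TPM (4.85 (SE 0.36)). Of 14 CXC chemokine genes in the test 9 rose, 0 fell and 5 did not pass (8 up and 1 down with library totals and 5 up and 0 down with naive library 4 alone), with a median log2 fold change of 2.48. Their summed level ran from 49.2 to 115 TPM in naive and from 10140.4 to 16421 TPM in exposed libraries.

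The kB sites for NF-kB dimers are a known feature of these promoters, so the 150 bases before the transcription start are shown for the 3 chemokines, for Tnf and Nfkbia, which also rose, and for Txnip, which fell. Sequences are from RefSeq on build GRCm38.p6, written 5′ to 3′ on the gene's own strand. Capitals mark matches to the kB consensus on either strand.
Cxcl1 (chr5:90891095-90891244, plus strand): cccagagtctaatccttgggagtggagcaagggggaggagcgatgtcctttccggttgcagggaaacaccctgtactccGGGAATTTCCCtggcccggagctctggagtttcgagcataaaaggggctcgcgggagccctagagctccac
Cxcl2 (chr5:90903749-90903898, plus strand): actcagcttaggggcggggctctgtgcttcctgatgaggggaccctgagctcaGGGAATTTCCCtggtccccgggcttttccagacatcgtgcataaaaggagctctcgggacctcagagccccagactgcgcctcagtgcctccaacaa
Cxcl3 (chr5:90785951-90786100, plus strand): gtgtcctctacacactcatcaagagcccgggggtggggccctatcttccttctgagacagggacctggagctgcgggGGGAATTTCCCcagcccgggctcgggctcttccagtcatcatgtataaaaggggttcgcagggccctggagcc
Tnf (chr17:35202008-35202157, minus strand): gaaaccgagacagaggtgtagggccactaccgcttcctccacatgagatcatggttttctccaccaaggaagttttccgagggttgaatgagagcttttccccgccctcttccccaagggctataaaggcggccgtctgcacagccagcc
Nfkbia (chr12:55492648-55492797, minus strand): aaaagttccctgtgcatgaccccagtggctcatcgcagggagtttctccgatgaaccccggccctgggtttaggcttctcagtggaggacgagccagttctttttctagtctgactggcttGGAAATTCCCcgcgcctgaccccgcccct
Txnip (chr3:96557807-96557956, plus strand): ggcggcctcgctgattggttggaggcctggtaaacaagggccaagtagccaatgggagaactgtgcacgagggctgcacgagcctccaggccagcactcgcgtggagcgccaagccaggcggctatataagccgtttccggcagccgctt
The 3 chemokine promoters share the match GGGAATTTCC, which begins 71 bases before the start in Cxcl1, 97 in Cxcl2 and 73 in Cxcl3 and reads as GGAATTTCCC from the next base on. In Nfkbia the match is GGAAATTCCC, 29 bases before the start. The Tnf and Txnip windows hold no match, and in Tnf the motif TATAAA begins 29 bases before the start.

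Over all genes the same search used windows of 250 bases before to 50 after the start, both strands, and genes were grouped by their calls among the protein-coding genes tested. The kB consensus matched 16.7% of 666 promoters of genes higher by at least 2, 9.96% of 7228 promoters of genes that did not pass and 8.46% of all 32841 promoters in the table. The TGANTCA motif, bound by AP-1, matched 12.6%, 5.53% and 7.81% of the same sets. TATAAA was at 14.1%, 8.15% and 13.6%, and TGACGTCA, the full cAMP-response element, at 2.85%, 2.77% and 1.79%. The CArG box, bound by serum response factor, was at 0.75%, 1.40% and 1.63%. Among 96 promoters of genes lower by at least 2, 19.8% held a kB match and 3.13% held TGANTCA. These shares are descriptions without a test, and promoters of genes that rose by at least 2 held a median of 10 CG dinucleotides against 18 in genes that did not pass.

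CC chemokines attract monocytes, T cells and dendritic cells. Ccl3 and Ccl4, which encode macrophage inflammatory proteins, had the largest rises of the list. Ccl3 was at 16.3, 25.9, 28.3 and 42.4 TPM in naive and 5875, 4020.0, 5825, 6249 and 6167 TPM in exposed libraries (8.00 (SE 0.26, adjusted p = 1.0e-15)). Ccl4 moved from 3.99 ± 1.81 to 615 ± 134 TPM (7.58 (SE 0.34)). Of 13 CC chemokines 7 rose, 0 fell and 6 did not pass, with a median of 4.04 and sums from 4171 to 4964 TPM in naive and from 8606 to 12258 TPM in exposed libraries. The range of the naive sum is set by the constitutive chemokine gene Ccl6.

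Cytokines of the first wave followed the same course. Tnf was at 49.8, 46.1, 45.0 and 71.0 TPM in naive libraries and 10113, 6676, 8634, 9223 and 9465 TPM in exposed ones (7.76 (SE 0.23)). Interleukin 1 came in both forms. Il1a went from 34.6, 40.02, 30.4 and 40.2 TPM to 3642, 2528, 3730.4, 3262 and 2711 TPM (6.83 (SE 0.20, adjusted p = 2.2e-16)), and Il1b from 13.4, 19.4, 15.6 and 24.2 TPM to 3719, 2705, 2799, 2769.7 and 2327 TPM (7.68 (SE 0.23)). No exposed value came near the naive range, and the exposed libraries with the highest and lowest values differed between both genes. The antagonist of the same receptor, Il1rn, was already at 224 ± 15.9 TPM and reached 1692 ± 119.5 TPM (3.34 (SE 0.12)), so the summed TPM of Il1a and Il1b was below Il1rn in the naive group and above it in the exposed group. Il1rl2, the receptor of the IL-36 branch, fell from 32.7 ± 1.77 to 15.5 ± 3.27 TPM. Of 16 IL-1 family genes 9 rose, 2 fell and 5 did not pass (7 up and 3 down with library totals, 5 up and 1 down with naive library 4 alone and 1 down without exposed library 3, 4 or 5 or naive library 1, 3 or 4). Among 21 TNF superfamily ligands and receptors 14 rose, 2 fell and 5 did not pass (10 up and 5 down with library totals, 10 up and 0 down with naive library 4 alone and 1 down without naive library 1 or 3).

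Interleukins and colony-stimulating factors reached lower levels. Il23a, the p19 subunit of IL-23, stood at 0.762, 0, 0.324 and 0.504 TPM and then 96.7, 62.0, 119.5, 116 and 216 TPM (8.54 (SE 0.51, adjusted p = 1.6e-11)). Il6 was at 0.284 to 0.942 TPM in naive and 31.4 to 45.8 TPM in exposed libraries (6.47 (SE 0.38)), and Il12b, the p40 subunit shared by IL-12 and IL-23, at 0.583 ± 0.435 and 13.7 ± 2.94 TPM. Csf3, the neutrophil growth factor G-CSF, went from 0.0907 ± 0.0634 to 6.94 ± 1.36 TPM (6.48 (SE 0.38)). Csf2, which encodes GM-CSF, had counts in naive library 4 alone of its group and rose from 0.0598 ± 0.12 to 2.93 ± 1.61 TPM, and Csf1 rose from 0.807 ± 0.277 to 8.86 ± 1.63 TPM. Il10 was at 0 counts in every naive library and had 13 to 23 counts in each exposed one, at least 1.53-fold higher. Il15 fell from 8.88 ± 0.504 to 3.46 ± 0.815 TPM (-1.23 (SE 0.28)). Ifnb1 did not reach the filter. Of 20 genes of these families tested, 13 rose, 1 fell and 6 did not pass (13 up and 3 down with library totals, 12 up and 0 down with naive library 4 alone and 2 down without exposed library 5), with a median of 3.87.

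**Figure D2:**
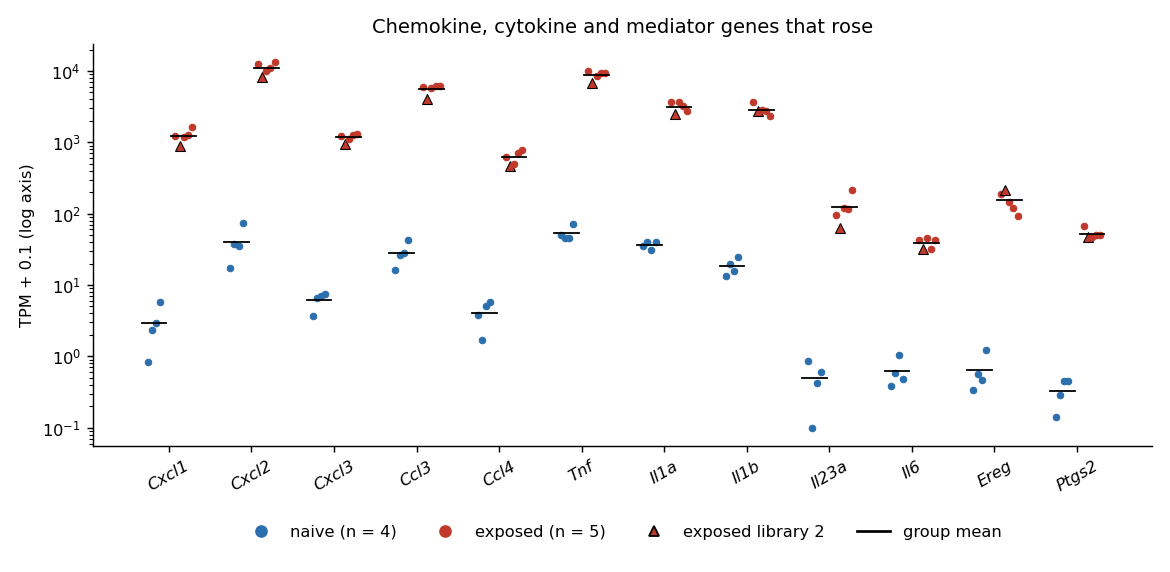
TPM of 12 chemokine, cytokine and mediator genes in each of the 4 naive and 5 exposed wild type libraries, on a log axis after adding 0.1, with group means as bars. All exposed points lie above all naive points in each of the 12 genes, as the choice required of genes taken from the 12 largest rises.

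Genes that macrophages typically induce after new protein synthesis were examined beside these. Of 17 such genes 11 rose, 0 fell and 6 did not pass (8 up and 1 down with library totals), with a median of 1.35. Lcn2, a siderophore-binding protein, rose from 19.8 ± 13.3 to 35.3 ± 16.4 TPM (1.31 (SE 0.47)), a call lost when exposed library 4 or 5 or naive library 2 or 4 was left out, with log2 fold changes of 1.10, 1.21, 0.96 and 1.27. Nos2, the inducible nitric oxide synthase, was at 0.0298 ± 0.0596 and 0.225 ± 0.167 TPM and did not pass (3.24 (SE 1.30, adjusted p = 0.053)). It had counts in naive library 3 alone of its group, and it passed without that library, without exposed library 1, with thinned counts (adjusted p = 0.0474) and with DESeq2 (adjusted p = 0.0189). Interferon-stimulated genes moved less: of 35, 8 rose, 5 fell and 22 did not pass (4 up and 11 down with library totals and 3 up and 3 down with naive library 4 alone). These counts lie near the shares over all tested genes, of which 20.1% rose and 20.2% fell. Their median of 0.33 became -0.02 when libraries were scaled to totals. Irf1, itself an early NF-kB target, rose from 59.3 ± 3.98 to 408 ± 40.3 TPM (3.16 (SE 0.16)), Ifit1 rose from 1.23 ± 0.72 to 2.20 ± 0.744 TPM and Xaf1 fell from 4.19 ± 0.384 to 1.83 ± 0.818 TPM.

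Among sensors of the particles, rises outnumbered falls. Tlr2, the receptor for bacterial lipoproteins, was at 212, 189, 179.5 and 178 TPM in naive and 1389, 1120.3, 1771, 1401 and 1059.5 TPM in exposed libraries (3.20 (SE 0.11, adjusted p = 2.0e-15)). Cd14 rose from 96.7 ± 6.49 to 903 ± 79.1 TPM (3.63 (SE 0.09)). Clec4e, which encodes the lectin receptor Mincle, went from 11.4, 12.6, 10.1 and 17.9 TPM to 905, 764, 775, 872 and 631 TPM (6.16 (SE 0.17)), whereas Clec7a, the beta-glucan receptor dectin-1, changed only from 688 ± 97.5 to 792 ± 146 TPM (0.58 (SE 0.17)), a call lost under scaling to totals (0.22). Tlr8, an endosomal receptor for RNA, fell from 39.9 ± 3.73 to 13.4 ± 4.89 TPM (-1.23 (SE 0.19)). In the list of 20 sensing genes 13 rose, 2 fell and 5 did not pass (11 up and 5 down with library totals, 11 up and 1 down with naive library 4 alone and 4 down without exposed library 1), with a median of 1.25. Downstream, the kinase gene Irak2 rose from 57.1 ± 11.7 to 111 ± 9.55 TPM and the ubiquitin ligase gene Traf6 from 10.5 ± 1.75 to 22.4 ± 2.70 TPM, while Tab1, an adaptor of the kinase TAK1, fell from 11.9 ± 1.05 to 3.37 ± 0.798 TPM. Irak3, a brake on this pathway, rose from 10.9 ± 1.90 to 16.2 ± 2.39 TPM, and Myd88 went from 143 ± 11.3 to 156 ± 14.9 TPM (0.47 (SE 0.07)), a call lost under scaling to totals (0.11). Of 18 adaptors and kinases 12 rose, 4 fell and 2 did not pass (9 up and 6 down with library totals), with a median of 0.55.

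The NF-kB module rose almost as a whole. NF-kB dimers are held in the cytoplasm by IkB proteins, whose genes are NF-kB targets themselves. Of 15 genes of subunits, kinases and inhibitors, 14 rose, 1 fell and 0 did not pass (12 up and 2 down with library totals and 12 up and 0 down with naive library 4 alone), with a median of 2.98 and sums from 684 to 743 TPM in naive and from 4753 to 5684 TPM in exposed libraries. The largest change was in Nfkbiz. Nfkbia was at 133, 137, 209 and 148 TPM in naive and 2565, 2188, 2379.6, 2522 and 2720.2 TPM in exposed libraries (4.36 (SE 0.16, adjusted p = 8.5e-15)). Nfkbiz went from 5.94, 5.78, 8.04 and 10.2 TPM to 833, 659, 827, 724 and 633 TPM (7.08 (SE 0.21)). Nfkbie and Nfkbib rose by 3.69 (SE 0.14) and 2.52 (SE 0.12). Subunit genes rose too, Rel by 3.56 (SE 0.14), Nfkb2 by 3.19 (SE 0.11), Relb by 2.98 (SE 0.14), Nfkb1 by 2.32 (SE 0.10) and Rela by 1.79 (SE 0.08). Ikbkg, which encodes the scaffold NEMO, was the single member that fell (from 19.7 ± 1.88 to 14.5 ± 2.07 TPM), a call lost in 6 of the 9 fits that left out 1 library. The ubiquitin editor Tnfaip3, known as A20, rose from 30.7 ± 5.72 to 586 ± 54.6 TPM (4.88 (SE 0.15)), its partner Tnip1 from 26.6 ± 2.52 to 149 ± 21.0 TPM, Tnip3 from 0.414 ± 0.327 to 11.3 ± 1.87 TPM and Birc3, which encodes a ubiquitin ligase, from 39.6 ± 2.54 to 63.1 ± 5.45 TPM. Of 15 ubiquitin editors 12 rose, 0 fell and 3 did not pass (8 up and 3 down with library totals and 1 down without exposed library 2).

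Immediate-early transcription factors mostly rose, with a few falls. Egr3 went from 0.0458, 0.247, 0.0476 and 0.145 TPM to 25.6, 18.7, 25.7, 27.4 and 17.9 TPM (7.76 (SE 0.32, adjusted p = 4.4e-14)) and Egr1 from 3.73 ± 1.00 to 121 ± 14.3 TPM (5.40 (SE 0.27)). Junb rose from 81.9 ± 11.5 to 1068 ± 201 TPM (4.08 (SE 0.12)), Nr4a1, an orphan nuclear receptor, from 18.2 ± 4.06 to 359 ± 95.5 TPM and Atf3 from 16.7 ± 3.55 to 228 ± 30.2 TPM. Egr2, abundant before exposure, rose from 93.6 ± 14.5 to 231 ± 22.5 TPM (1.68 (SE 0.19)). The Fos family split. Fosb was at 3.03, 1.58, 1.48 and 2.35 TPM in naive and 13.5, 15.8, 21.5, 18.1 and 14.8 TPM in exposed libraries (3.32 (SE 0.27)), whereas Fos was at 136, 75.5, 147 and 121 TPM and 50.6, 68.3, 79.996, 51.1 and 54.6 TPM (-0.59 (SE 0.23, adjusted p = 0.044)). The groups of Fos overlapped, since naive library 2 lay below exposed library 3, and the call was lost in 7 of the 9 fits that left out 1 library (those that kept it left out naive library 2 or exposed library 3), with log2 fold changes of -0.61 to -0.47 among the 7. Jun went from 27.3 ± 1.57 to 32.5 ± 6.86 TPM (0.62 (SE 0.13)), a call lost under scaling to totals (0.26). Myc, a growth regulator, fell from 71.0, 57.6, 120.0 and 80.02 TPM to 15.99, 32.9, 36.6, 21.3 and 25.2 TPM (-1.29 (SE 0.23)). Of 29 early factors 22 rose, 3 fell and 4 did not pass, with a median of 1.41.

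Feedback on MAP kinases split by phosphatase. Dusp1 and Dusp2, nuclear phosphatases that act on p38, JNK and ERK, rose by 3.32 (SE 0.44) and 4.82 (SE 0.28). Dusp6, a cytoplasmic phosphatase of ERK, was at 83.5, 70.2, 91.1 and 79.5 TPM in naive and 13.9, 21.1, 13.1, 9.48 and 14.7 TPM in exposed libraries (-2.09 (SE 0.21, adjusted p = 5.2e-08)), with no overlap. Gadd45b, an activator of p38 and JNK signalling, rose from 25.6 ± 5.20 to 1329 ± 97.6 TPM (6.04 (SE 0.15)). Of 18 genes 12 rose, 3 fell and 3 did not pass (11 up and 5 down with library totals).

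Regulators that destroy cytokine transcripts mostly rose. Zfp36, which encodes tristetraprolin and binds AU-rich elements, rose from 64.8 ± 11.4 to 351 ± 47.5 TPM (2.84 (SE 0.18)), and the RNase gene Zc3h12a, known as Regnase-1, from 33.6 ± 2.15 to 257 ± 63.2 TPM (3.37 (SE 0.15)). Its relatives diverged: Zc3h12c was at 0.203, 0.446, 0.528 and 0.58 TPM and then 49.4, 35.7, 47.5, 40.2 and 23.6 TPM (6.77 (SE 0.27)), and Zc3h12d fell from 6.49 ± 0.695 to 1.80 ± 0.343 TPM (-1.48 (SE 0.17)). Of 18 genes of this group 13 rose, 4 fell and 1 did not pass, with a median of 0.64. Among cytokine receptors and their suppressors, Socs3 had the largest rise, from 12.6 ± 0.589 to 528 ± 78.8 TPM (5.81 (SE 0.18)). Il10ra rose from 72.0 ± 3.83 to 117 ± 7.37 TPM and Il6ra fell from 38.4 ± 6.07 to 16.5 ± 4.51 TPM. Of 27 members 13 rose, 4 fell and 10 did not pass (9 up and 13 down with library totals and 8 up and 3 down with naive library 4 alone), and their median of 0.18 became -0.17 under scaling to totals.

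Growth factors and lipid mediators included several of the largest rises. Ereg, which encodes the EGF receptor ligand epiregulin, was at 0.236, 0.471, 0.359 and 1.12 TPM in naive and 191, 216, 147, 122 and 93.8 TPM in exposed libraries (8.32 (SE 0.46, adjusted p = 4.6e-12)). Inhba, the beta A subunit of activin, went from 0.436, 0.793, 0.67 and 1.27 TPM to 163, 124, 105, 150.1 and 162 TPM (7.79 (SE 0.36)). Both were under 1.5 TPM in each naive library. Hbegf rose from 0.371 ± 0.23 to 3.88 ± 0.4 TPM and Pgf, placental growth factor, fell from 3.39 ± 1.07 to 1.29 ± 0.387 TPM. Of 18 growth factor genes 12 rose, 1 fell and 5 did not pass (12 up and 3 down with library totals, 9 up and 0 down with naive library 4 alone and 2 down without exposed library 1), with sums from 74.7 to 88.0 TPM in naive and from 1699 to 2603 TPM in exposed libraries. In prostaglandin synthesis the inducible enzyme genes rose, Ptgs2 from 0.0433, 0.187, 0.347 and 0.35 TPM to 66.5, 47.4, 46.5, 49.9 and 50.7 TPM (8.02 (SE 0.40)) and Ptges from 8.72 ± 1.75 to 107 ± 26.1 TPM (4.09 (SE 0.21)). Ltc4s, the leukotriene C4 synthase, fell from 814 ± 49.2 to 433 ± 28.8 TPM (-0.53 (SE 0.09)). The shares of the whole list lay near those of all tested genes (20.1% higher and 20.2% lower). Over the whole list 5 rose, 4 fell and 10 did not pass of 19 (5 up and 7 down with library totals and 5 up and 0 down with naive library 4 alone), with a median of -0.06.

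Genes of coagulation and fibrinolysis rose more often than they fell. Serpinb2, a serine protease inhibitor of the serpin family, went from 0.0204 ± 0.0408 to 5.36 ± 1.37 TPM (8.25 (SE 0.58)) and F3, tissue factor, from 1.70 ± 0.268 to 6.36 ± 1.74 TPM (2.28 (SE 0.37)). Thbd, which encodes the anticoagulant receptor thrombomodulin, fell from 19.8, 20.5, 26.4 and 25.1 TPM to 4.78, 6.16, 5.13, 2.56 and 4.06 TPM (-1.97 (SE 0.24)). Of 20 members 12 rose, 1 fell and 7 did not pass (9 up and 3 down with library totals). Among 36 adhesion and migration genes 26 rose, 2 fell and 8 did not pass (18 up and 4 down with library totals, 20 up and 0 down with naive library 4 alone, 0 down without exposed library 4 or 5 or naive library 3 or 4 and 1 down without exposed library 1 or 2 or naive library 1 or 2), with a median of 0.81. Icam1, the ligand of leukocyte integrins, rose from 81.4, 85.9, 63.8 and 67.2 TPM to 962, 749, 1079, 982 and 722 TPM (3.97 (SE 0.20)), and Ccrl2, a receptor that binds chemerin without signalling, from 5.17 ± 1.05 to 359 ± 65.4 TPM (6.34 (SE 0.17)).

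Survival and death genes were examined as 1 list. Its rises held inhibitors of apoptosis and also the BH3-only death genes Bcl2l11 (2.06) and Pmaip1 (2.60), both named after their values were seen. Cflar, which encodes the caspase-8 inhibitor c-FLIP, rose from 34.3 ± 2.93 to 217 ± 14.7 TPM (3.47 (SE 0.11)) and Mcl1 from 522 ± 18.7 to 844 ± 46.3 TPM (1.07 (SE 0.10)). The Bcl2a1 copies Bcl2a1a, Bcl2a1b and Bcl2a1d rose by 1.56 (SE 0.10), 2.26 (SE 0.10) and 2.04 (SE 0.10). They are near-identical, so the split between them is uncertain. Bmf, a BH3-only death gene, was at 51.3, 51.2, 56.6 and 49.0 TPM in naive and 4.24, 11.1, 7.89, 3.57 and 6.78 TPM in exposed libraries (-2.58 (SE 0.32, adjusted p = 1.2e-06)). Of 29 members 16 rose, 4 fell and 9 did not pass (14 up and 8 down with library totals). Inflammasome genes behaved unevenly: 2 rose, 5 fell and 8 did not pass of 15 (1 up and 9 down with library totals, 1 up and 4 down with naive library 4 alone and 1 up without exposed library 2, 4 or 5 or naive library 1, 2 or 4). The shares over all tested genes were 20.1% higher and 20.2% lower. Nlrp3, the inflammasome sensor, rose from 39.97 ± 3.84 to 859 ± 111 TPM (4.78 (SE 0.13)). Casp1, its protease, was at 78.8 ± 7.99 and 71.8 ± 10.5 TPM (0.15 (SE 0.09, adjusted p = 0.22)).

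Oxidant and metal genes were examined together. Fth1, the ferritin heavy chain, went from 5255, 5739, 4944 and 5033 TPM to 10540.1, 10222, 11499, 11540.4 and 9325 TPM (1.43 (SE 0.08)), which put it among the 10 most abundant transcripts after exposure. Slc7a11, a cystine transporter, rose from 3.13 ± 0.693 to 159 ± 18.6 TPM (5.95 (SE 0.23)), Srxn1, which repairs peroxiredoxins, from 23.9 ± 1.42 to 122 ± 15.9 TPM and Hmox1, heme oxygenase 1, from 219 ± 19.3 to 492 ± 98.0 TPM. Keap1, which encodes the repressor of NRF2, fell from 41.4 ± 2.00 to 20.0 ± 1.61 TPM. Of 22 NRF2 targets and regulators 13 rose, 2 fell and 7 did not pass (9 up and 8 down with library totals and 9 up and 1 down with naive library 4 alone), with a median of 0.42 that became 0.06 under scaling to totals. Hamp, the iron hormone hepcidin, was at 1.02, 1.4995, 2.40 and 1.14 TPM in naive and 134, 97.1, 123, 151 and 182 TPM in exposed libraries (6.86 (SE 0.42, adjusted p = 2.8e-11)). The metallothioneins Mt1 and Mt2 rose from 762 ± 19.7 to 1977 ± 385 TPM and from 189.8 ± 17.8 to 1069 ± 235 TPM. Of 13 metal genes 9 rose, 1 fell and 3 did not pass (7 up and 3 down with library totals and 6 up and 0 down with naive library 4 alone). Sod2, the mitochondrial superoxide dismutase, rose from 34.7 ± 0.894 to 148 ± 9.67 TPM (2.29 (SE 0.09)) and Cybb, the catalytic subunit of the phagocyte oxidase, from 368 ± 14.9 to 653 ± 70.9 TPM (1.20 (SE 0.09)).

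Metabolic genes were examined in 3 lists. Acod1, which makes itaconate, was at 1.05, 0.509, 3.78 and 1.54 TPM in naive and 37.8, 32.9, 45.0, 50.9 and 48.2 TPM in exposed libraries (4.9956 (SE 0.37)). Gch1, the entry enzyme of tetrahydrobiopterin synthesis, rose from 14.8 ± 1.70 to 77.9 ± 8.85 TPM (2.77 (SE 0.11)), and Pts, the next enzyme, fell from 44.1 ± 4.97 to 27.7 ± 5.64 TPM (-0.46 (SE 0.10)). Of 19 members 14 rose, 2 fell and 3 did not pass (9 up and 4 down with library totals and 10 up and 1 down with naive library 4 alone). Hk2, a hexokinase, rose from 16.3 ± 1.58 to 53.9 ± 9.47 TPM and Slc2a1, a glucose transporter, from 12.9 ± 1.56 to 24.5 ± 4.46 TPM, whereas Pdk1 fell from 17.7 ± 2.14 to 9.82 ± 1.82 TPM. Of 26 glycolysis and hypoxia genes 13 rose, 2 fell and 11 did not pass (8 up and 13 down with library totals), at a median of 0.32 that became -0.04 under scaling to totals. Adm, the peptide adrenomedullin, was at 0 counts in each naive library and at least 6.35-fold higher. Ch25h, which makes 25-hydroxycholesterol, went from 94.1, 87.4, 159 and 130.005 TPM to 1139, 991, 1082, 1146 and 1089.8 TPM (3.59 (SE 0.23)), and the sterol-regulated gene Insig1 rose by 2.27 (SE 0.12). Mylip, which encodes a ubiquitin ligase, fell from 56.7 ± 8.19 to 23.5 ± 2.54 TPM (-0.89 (SE 0.13)). Of 26 sterol genes 16 rose, 4 fell and 6 did not pass (13 up and 9 down with library totals and 13 up and 2 down with naive library 4 alone), with a median of 0.63.

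Stress genes were examined in 2 lists. Of 17 heat shock genes 12 rose, 1 fell and 4 did not pass (8 up and 3 down with library totals and 5 up and 1 down with naive library 4 alone). Of 22 genes of the integrated stress response 11 rose, 3 fell and 8 did not pass (8 up and 5 down with library totals). The inducible chaperones Hspa1a and Hspa1b, near-identical copies, rose by 2.76 (SE 0.46) and 2.40 (SE 0.44). Ppp1r15a, which reverses the translation block of this response, rose from 6.69 ± 0.448 to 63.5 ± 5.06 TPM (3.58 (SE 0.14)) and its upstream factor Atf4 from 228 ± 7.35 to 447 ± 26.5 TPM (1.36 (SE 0.08)). Cebpg fell from 87.7 ± 4.93 to 48.0 ± 9.91 TPM and the heat shock factor Hsf2 from 16.9 ± 1.29 to 8.32 ± 0.82 TPM.

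Genes of alveolar macrophage identity moved in both directions. Their list also holds induced genes such as Cxcl2 and Il1rn, which count among its rises, and 8 of its members were higher by at least 2. Car4, a carbonic anhydrase, rose from 1005, 994, 934 and 967 TPM to 2337, 2327, 2834, 3425 and 3036 TPM (1.87 (SE 0.14, adjusted p = 8.0e-10)), while the lectin genes Siglecf and Siglec1 fell from 304 ± 6.10 to 186 ± 26.0 TPM (-0.36 (SE 0.11)) and from 83.8 ± 3.22 to 37.0 ± 10.4 TPM (-0.82 (SE 0.11)). Marco, a scavenger receptor, went from 478 ± 64.2 to 589 ± 169 TPM (0.68 (SE 0.18)) and Pparg, the factor that sets this identity, from 197 ± 36.2 to 215 ± 28.1 TPM (0.50 (SE 0.13)), and both calls were lost under scaling to totals (0.32 and 0.14) and with only the deepest naive library kept (0.47 and 0.18), as was that of Siglecf in the latter (-0.41). Of 35 identity genes 23 rose, 6 fell and 6 did not pass (13 up and 11 down with library totals and 15 up and 5 down with naive library 4 alone), with a median of 0.44 that became 0.07 under scaling to totals. Among 23 scavenger and phagocytic receptors 12 rose, 3 fell and 8 did not pass (6 up and 9 down with library totals, 5 up and 2 down with naive library 4 alone and 5 down without exposed library 3), at a median of 0.56 (-0.08 with log2(TPM + 1) values). Olr1, a receptor for oxidised lipoprotein, rose from 125 ± 15.04 to 716 ± 141 TPM (2.89 (SE 0.14)), and the high-affinity IgG receptor gene Fcgr1 fell from 51.5 ± 2.48 to 24.9 ± 2.49 TPM (-0.67 (SE 0.11)). Lysosome and phagosome genes had 21 rose, 2 fell and 11 did not pass of 34 (13 up and 12 down with library totals and 13 up and 1 down with naive library 4 alone), with a median of 0.32 that became -0.04 under scaling to totals. Their summed level ran from 20353 to 21714 TPM in naive and from 16991 to 20983 TPM in exposed libraries. Mitf, a regulator of lysosome genes, rose from 17.6 ± 6.15 to 32.8 ± 5.97 TPM (1.74 (SE 0.42)). Co-stimulation genes rose, Cd83 by 3.93 (SE 0.15), Cd40 by 4.28 (SE 0.42) and Cd86 by 2.64 (SE 0.23), and the class II gene H2-Ab1 rose from 121 ± 20.3 to 189 ± 27.1 TPM, while H2-DMa, which loads peptide onto class II, fell from 675 ± 27.0 to 411 ± 17.5 TPM. In that list 10 rose, 1 fell and 6 did not pass of 17 (10 up and 3 down with library totals, 10 up and 0 down with naive library 4 alone and 2 down without exposed library 1).

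**Figure D3:**
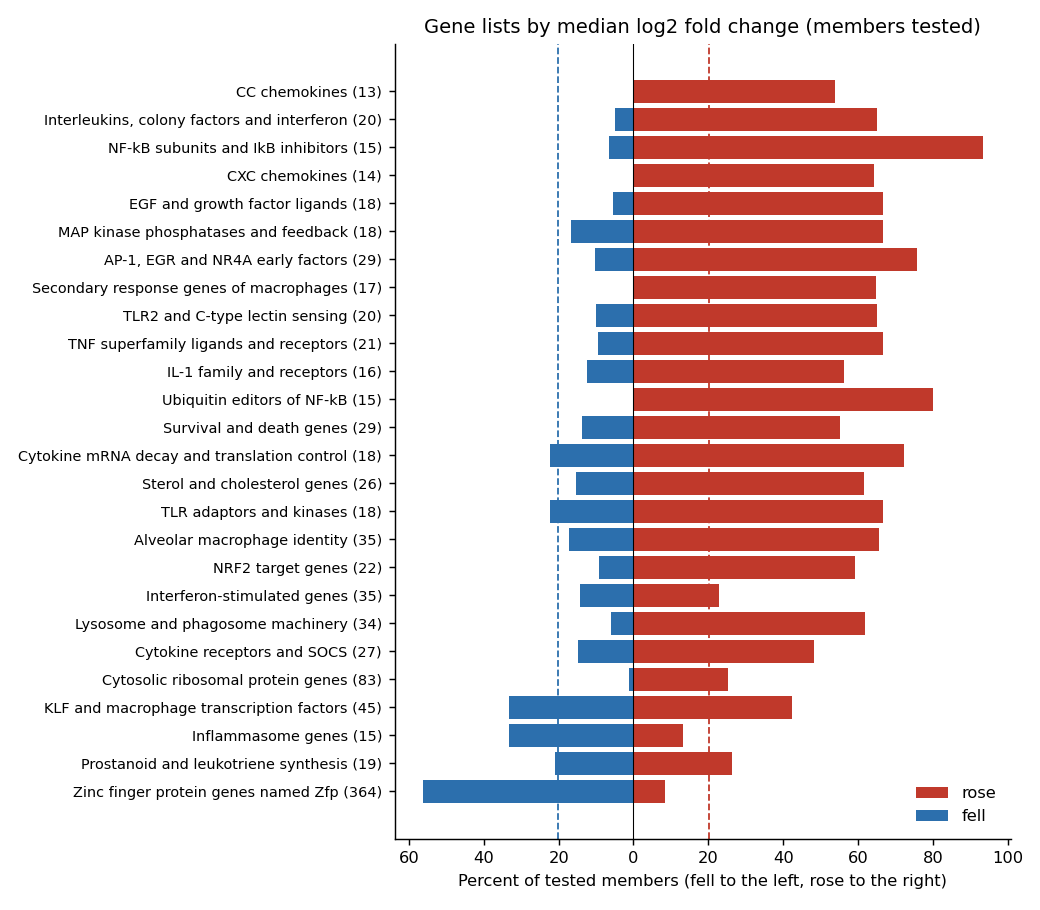
Share of tested members that rose (red, right) and fell (blue, left), in percent, for 26 gene lists ordered by median log2 fold change, with dashed lines at the shares over all tested genes (20.1% higher, 20.2% lower). The NF-kB list had the largest share of rises, and the Zfp genes at the bottom had the largest share of falls.

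The falls were shallower than the rises. The 12 largest falls at 10 TPM or more with no overlap were Hhex, Bmf, Angptl4, Prr33, Nfe2, Zfp810, Grb7, Il16, Tifab, Hmga2-ps1, Mbd4 and Cdc42ep3. Hhex, a homeobox transcription factor, went from 82.2, 79.9, 61.1 and 64.7 TPM to 7.67, 12.01, 8.82, 4.03 and 7.65 TPM (-2.77 (SE 0.23, adjusted p = 3.3e-09)). Tifab, which encodes an inhibitor of the TRAF6 activator TIFA, was at 149, 127, 127 and 126 TPM in naive and 17.4, 27.2, 27.2, 12.02 and 22.6 TPM in exposed libraries (-2.29 (SE 0.23)). Cdc42ep3, an effector of the GTPase CDC42, was the most abundant of the 12, at 220.1, 194, 218 and 238 TPM and then 30.8, 53.5, 39.0, 18.9 and 34.4 TPM (-2.26 (SE 0.21)). Exposed library 4 was the lowest in each of these 3. Nfe2, a bZIP factor, fell from 14.6 ± 4.53 to 2.17 ± 1.47 TPM, Il16, a T cell chemoattractant, from 37.4 ± 4.05 to 6.65 ± 3.66 TPM, Mbd4, a DNA glycosylase, from 13.1 ± 1.60 to 2.08 ± 1.25 TPM and Angptl4, an inhibitor of lipoprotein lipase, from 81.0 ± 12.9 to 11.4 ± 6.50 TPM.

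Transcription factors outside the early set went both ways. Klf4 was at 188, 158, 178 and 168 TPM in naive and 34.0, 50.6, 50.4, 30.8 and 39.8 TPM in exposed libraries (-1.70 (SE 0.15, adjusted p = 1.5e-08)), and Klf6 rose from 175 ± 19.7 to 346 ± 46.0 TPM (1.37 (SE 0.13)). Ets2 rose from 17.4 ± 2.48 to 121 ± 20.8 TPM (3.16 (SE 0.13)). Of 45 macrophage transcription factors 19 rose, 15 fell and 11 did not pass (12 up and 20 down with library totals and 13 up and 9 down with naive library 4 alone), with a median of 0.06 that became -0.29 under scaling to totals. Kdm6b, which removes repressive methylation from histone H3, rose from 15.02, 16.4, 16.8 and 18.3 TPM to 211, 215, 294, 267 and 200.4 TPM (4.27 (SE 0.15)), and Hdac5, a histone deacetylase, fell from 36.4 ± 2.72 to 18.6 ± 2.17 TPM. Of 32 chromatin regulators 13 rose, 9 fell and 10 did not pass (9 up and 17 down with library totals and 7 up and 6 down with naive library 4 alone), with a median of 0.02 that became -0.33 under scaling to totals. Bhlhe40, a clock-linked repressor, rose from 191 ± 15.1 to 638 ± 116 TPM (2.12 (SE 0.13)) and Nr1d1, which encodes the clock repressor REV-ERB alpha, fell from 25.1 ± 3.22 to 9.74 ± 2.74 TPM (-0.93 (SE 0.24)).

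Targets of FOXO factors and glucocorticoids were examined as a list. Txnip, an inhibitor of thioredoxin, fell from 780.0, 838, 749 and 637 TPM to 129, 221, 178, 83.8 and 132 TPM (-1.97 (SE 0.23, adjusted p = 4.3e-07)). Its alpha-arrestin relative Arrdc3 fell from 19.1 ± 1.61 to 3.14 ± 0.86 TPM (-2.24 (SE 0.27)) and Tsc22d3, known as GILZ, from 275 ± 116 to 99.6 ± 19.4 TPM (-1.09 (SE 0.37)), the last a call lost without naive library 3 (-0.91), naive library 4 (-0.89) or exposed library 4 (-1.04). In the list of 22, 4 rose, 8 fell and 10 did not pass (3 up and 11 down with library totals and 1 up and 6 down with naive library 4 alone), with a median of -0.09. Among receptors for adenosine, nucleotides and catecholamines 10 rose, 11 fell and 8 did not pass of 29, with a median of 0.10 that became -0.25 under scaling to totals. Adora2b and Adora2a, which raise cAMP in response to adenosine, rose from 2.96 ± 0.728 to 59.4 ± 12.04 TPM (4.67 (SE 0.24)) and from 1.17 ± 0.377 to 8.42 ± 1.24 TPM (3.30 (SE 0.29)). Adra2a, an alpha2 adrenergic receptor gene, fell from 1.77 ± 0.529 to 0.203 ± 0.105 TPM.

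Cell cycle genes went both ways. Plk2, a polo-like kinase, rose from 2.75 ± 0.502 to 88.4 ± 13.1 TPM (5.32 (SE 0.20)) and the inhibitor Cdkn1a from 147 ± 18.3 to 473 ± 47.8 TPM (2.08 (SE 0.12)), while E2f2, a factor of S phase entry, fell from 24.9 ± 3.35 to 6.18 ± 1.28 TPM (-1.57 (SE 0.16)). Of 41 members 15 rose, 7 fell and 19 did not pass (10 up and 21 down with library totals and 8 up and 7 down with naive library 4 alone), with a median of 0.03 that became -0.33 under scaling to totals. Among noncoding genes, Mir155hg, the host of miR-155, rose from 0.976, 0.694, 1.503 and 0 TPM to 23.3, 20.3, 11.9, 16.4 and 13.997 TPM (4.86 (SE 0.60, adjusted p = 1.2e-06)), and Mir142hg, the host of miR-142, fell from 150.3 ± 8.08 to 53.1 ± 12.7 TPM (-1.12 (SE 0.14)). Neat1 was at 761 ± 56.5 and 468 ± 65.3 TPM and did not pass (-0.25 (SE 0.12, adjusted p = 0.12)), but passed as lower under scaling to totals (-0.61, adjusted p = 0.000143). Over all 2529 tested lncRNA genes 10.4% rose and 18.9% fell, against 24.3% and 24.0% of 14350 protein-coding genes. By at least 2, 5.73% of the lncRNA genes rose and 6.05% fell, against 4.88% and 0.75% of the protein-coding genes. These shares were not matched for level, on which the share of calls depends.

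**Figure D4:**
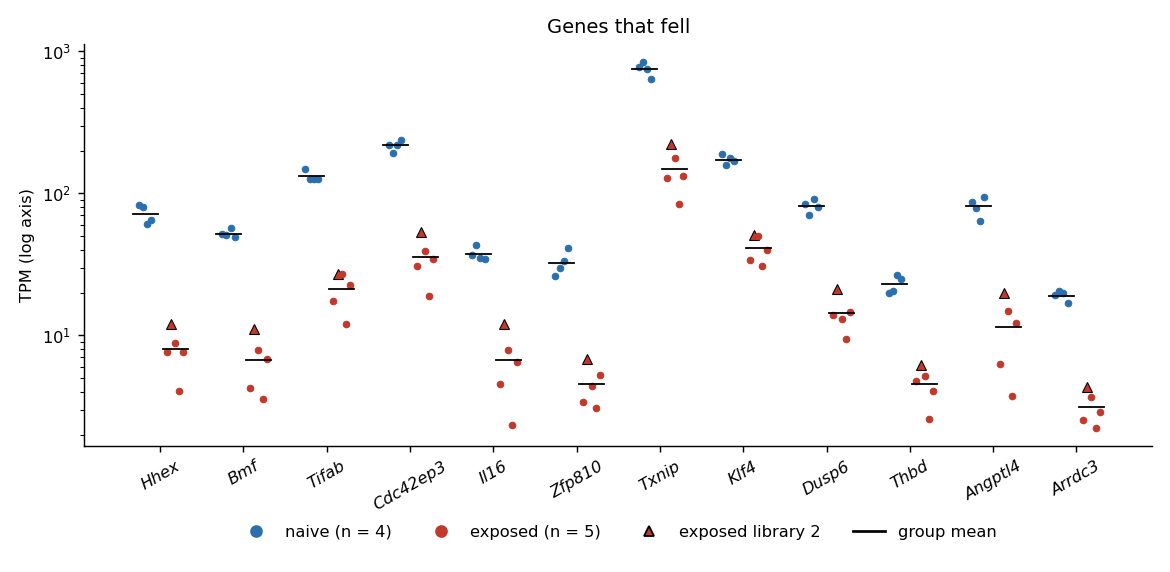
TPM of 12 genes that fell in each of the 4 naive and 5 exposed wild type libraries, on a log axis, with group means as bars. Every naive point lies above every exposed point, as the choice required of genes taken from the 12 largest falls. Exposed library 2 (triangle) is the highest exposed point in 11 of the 12.

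Of 8 gene families counted by symbol, the one with the most falls was the Zfp zinc finger genes, most of which encode DNA-binding repressors with KRAB or related domains. Of 364 tested members named Zfp, 205 fell, 31 rose and 128 did not pass (15 up and 259 down with library totals). The median of -0.70 became -1.06 under scaling to totals. The TPM of both groups did not overlap at 235 of the 364, and at 8238 of all 20501 tested genes (40.2%). With only the deepest naive library kept, 150 fell and 7 rose. Shares at like levels were as follows. Among genes at 1 to 5 TPM, 70.3% of 138 Zfp genes fell against 28.3% of 2182 protein-coding genes, and at 5 to 20 TPM 60.2% of 113 fell against 38.0% of 3498. Above 20 TPM, 42.9% of 42 fell against 25.0% of 5462. Zfp810 went from 26.0, 29.8, 33.2 and 41.2 TPM to 3.37, 6.80, 4.37, 3.07 and 5.22 TPM (-2.38 (SE 0.22)). Zfp36, which rose, carries the name without being a DNA-binding factor.

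Housekeeping families had small median changes. Of 83 ribosomal protein genes 21 rose, 1 fell and 61 did not pass (0 up and 54 down with library totals, 15 up and 0 down with naive library 4 alone, 9 up without naive library 4, 12 up without exposed library 1 or naive library 1 or 3 and 13 up without exposed library 5), with a median of 0.13 that became -0.23 under scaling to totals. Nuclear genes of mitochondrial complex I had 1 rose, 6 fell and 40 did not pass of 47 (0 up and 42 down with library totals, 0 up and 1 down with naive library 4 alone, 0 up without exposed library 1, 2 or 5 or naive library 1, 2 or 4 and 2 up without exposed library 3), and proteasome genes 24 rose, 2 fell and 12 did not pass of 38 (4 up and 14 down with library totals and 11 up and 1 down with naive library 4 alone), with medians of -0.10 and 0.24 that became -0.46 and -0.12 under scaling to totals. Psmb6 rose from 292 ± 22.9 to 489.8 ± 34.7 TPM (1.14 (SE 0.09)). H3f3b, which encodes the replication-independent variant H3.3, rose from 678 ± 25.3 to 1781 ± 229.6 TPM (1.76 (SE 0.09)). All 13 mitochondrially encoded protein genes passed as higher (5 with library totals), yet their summed TPM ran from 58886 to 75176 TPM in naive and from 52113 to 114918 TPM in exposed libraries and the groups overlapped at each of the 13. Exposed library 5 was the highest and exposed library 3 the lowest of all 9, and without the 3 shallow naive libraries none of the 13 passed. Nuclear pseudogenes such as Gm28661 hold near-identical copies of these genes, so their counts may share reads.

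Shares of calls differed by locus length. Of 1703 protein-coding loci under 5 kb 24.6% fell and 22.1% rose, and of 639 over 200 kb 3.91% fell and 27.2% rose. Within genes at 5 TPM or more, 32.1% of 1032 loci under 5 kb fell and 25.3% rose. Over 200 kb, 7.39% of 257 such loci fell and 34.2% rose. Rises of at least 2 were at 6.59% of the shortest loci, 2.62% of those of 20 to 50 kb, 1.37% of those of 100 to 200 kb and 1.95% of the longest, where they were 5 genes. At 5 TPM or more the median locus was 14.3 kb for genes that rose by at least 2 and 13.1 kb for the 30 that fell by at least 2. It was 26.6 kb for smaller rises, 18.3 kb for falls of under 2 and 24.4 kb for genes that did not pass. These are descriptions over genes, which are not replicates.

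**Figure D5:**
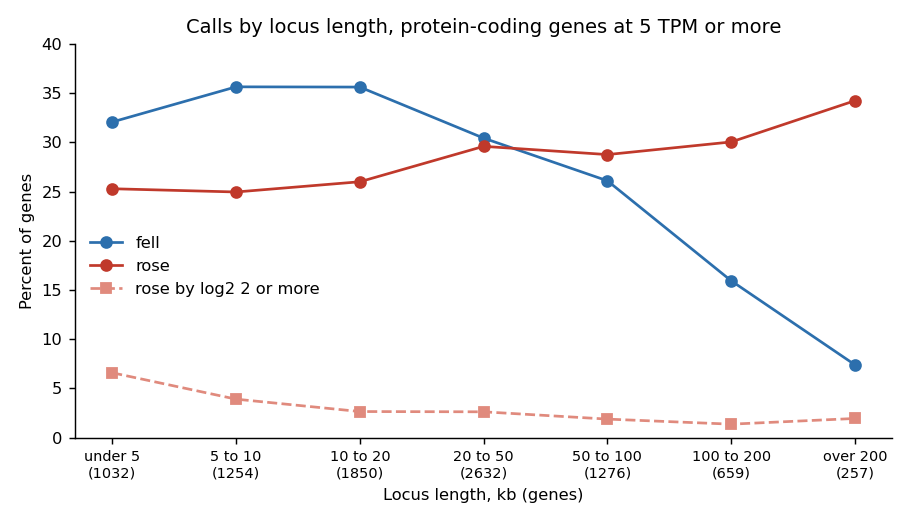
Percent of protein-coding genes at 5 TPM or more that rose, fell or rose by a log2 fold change of at least 2, by locus length in kb. The share that fell is 32.1% under 5 kb, 35.6% at 10 to 20 kb and 7.39% over 200 kb, and the share with a rise of at least 2 is 6.59%, 2.65% and 1.95% in the same bins.

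Exposed libraries differed in their distance from the naive group. The genes counted here were picked by their fold changes in these same libraries and are not replicates. Over the 155 genes at 5 TPM or more that rose by at least 3, exposed library 2 had the lowest TPM of its group at 72, and over the 143 that fell by at least 1.5 it had the highest at 110. Exposed library 4 had the lowest TPM at 85 of the 143. On the TMM scale the median fall below the naive mean was -1.42 in library 2 and -2.30 in library 4, and the median rise was 3.88 and 4.29. Library 2 had 2305 TPM of epithelial and 2403 TPM of red cell markers, and library 4 had 2581 and 2280 TPM. A link between these levels and the size of the response was not tested.

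The response of ICAM-1 null mice differed at 68 genes (0.332% of those tested) by the interaction test of the same model, 37 with a higher and 31 with a lower response. Leaving out naive library 1, 2 or 3 or exposed library 4 gave 34, 34, 37 or 43 genes. Of the genes named here, 7 were among them. Icam1, the deleted gene, had an interaction of -3.21 (SE 0.25). Ereg and Cxcl3 rose less in null mice, by 5.63 against 8.32 and by 6.48 against 8.02, with interactions of -2.70 (SE 0.50, adjusted p = 0.018) and -1.55 (SE 0.26, adjusted p = 0.0074). Slc7a11 and Clec4e also rose less, with interactions of -1.19 (adjusted p = 0.04) and -0.86 (adjusted p = 0.044). Irf1 rose more, with 0.93 (adjusted p = 0.04). Pts fell in wild type and was at 1.26 in null mice, an interaction of 1.73 (adjusted p = 7.8e-07). Pts lies on chromosome 9, as Icam1 does. Clec4e, Irf1, Slc7a11 and Ereg each lost their interaction call in some of the 9 fits that left out 1 wild type library (7, 7, 7 and 3 of them), and Icam1, Pts and Cxcl3 in none. With naive library 4 as the lone wild type naive library Icam1 and Pts kept their calls, and Cxcl3 (-1.27, adjusted p = 0.422) and the other 4 did not. The other named genes did not pass, which does not show that the responses were the same.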

How the data were processed

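RNA of lavage cell pellets was sequenced from 5 exposed and 4 naive wild type mice and, in the same series, from 10 ICAM-1 null mice. Poly(A)-selected libraries were sequenced as paired reads of 150 bases to a planned 20 M reads, per the labels' protocols. STAR, StringTie (version 2) and build GRCm39 appear in the submitters' processing notes, with counting options and strand setting not given in the sources used here. The authors deposited estimated counts as whole numbers, not scaled for depth, and TPM values, scaled by the authors to transcript length and to 1 sum per library. With totals above the planned reads, 1 fragment was taken as about 4 counts for the floor of 12 counts (3 fragments) per library used where a group was at 0, which is an assumption and covers counting error only.

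All 19 libraries entered 1 edgeR 4.0.16 model of the estimated counts (R 4.3.3, 4 groups, TMM, two-sided quasi-likelihood F test), after filterByExpr with its default minimum of 10 counts and minimum total of 15. The SE of a fold change is its size divided by the square root of F. P-values were adjusted by Benjamini-Hochberg over the 20501 genes kept, and a gene rose or fell at an adjusted p under 0.05. Alternatives used DESeq2 1.42.0, limma 3.58.1 on log2(TPM + 1), other scalings and filters, and left out libraries. The method was also run on simulated counts with known fold changes. Few genes were changed there, with rises and falls in balance, so the simulation cannot speak to the scaling of small changes. No pair of libraries of a group held identical values. Whether mice shared a litter or a day is not in the labels, and p-values cover only the spread between these samples. Deviations of same-numbered libraries from their group means were weakly correlated across the 4 groups, with r from -0.048 to 0.073. Such values cannot exclude a shared day or litter.

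Groups come from the labels. The genes listed, the lists and the rules were chosen with earlier results of these data known. The text names genes from the 12 largest rises or falls (10 TPM or more, no overlap between groups, predicted genes left out), the 10 highest mean TPM of each group, set members of the lists, the largest rise and fall of each list, and Icam1, some of which are not reported here. Lists were described by counts and medians without a set test. Of the 234 genes the rule gave, 177 had a promoter in the RefSeq table. Gene coordinates of the tables and of the promoters are on different builds and were not joined.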

Additional observations from a re-analysis of the deposited data

Results flagged for a closer look

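Among the genes named, 7 passed the interaction test, which takes the wild type response from the ICAM-1 null response. The differences were -3.21 for Icam1, -2.70 for Ereg, -1.55 for Cxcl3, -1.19 for Slc7a11, -0.86 for Clec4e, 0.93 for Irf1 and 1.73 for Pts, on the log2 scale.

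Single libraries stood apart from the rest of their group in 13 of 330 gene and group pairs checked by Dixon's ratio, and chance alone sets a library apart in about 1 of 20. In exposed libraries these were Ccl3 at 4020.0 TPM and lowest in library 2, Ptgs2 at 66.5 TPM and Il1bos at 49.9 TPM, both highest in library 1, Dusp1 at 715 TPM and highest in library 3, and Adra2a at 0.39 TPM, highest in library 5. In naive libraries the highest value stood apart for Tifab (149 TPM, library 1), Keap1 (44.4 TPM, library 2), Birc3 (43.4 TPM, library 3), Nos2 (0.12 TPM, library 3), Serpinb2 (0.082 TPM, library 3), Mbd4 (15.5 TPM, library 4), Hmga2-ps1 (67.2 TPM, library 4) and Csf2 (0.24 TPM, library 4). Nos2, Serpinb2 and Csf2 were at 0 in the other naive libraries.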

How the results depend on the processing

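The scaling of small changes is the main limit. Genes higher and lower numbered 4111 and 4134, and became 2233 and 8007 (10.9% and 39.1%) with library totals only, 1876 and 7980 (11.99% and 51.0%) with limma on log2(TPM + 1), 1877 and 7892 on log2(TPM + 0.1), and 2128 and 8115 on log2(TPM + 1) with no filter. Requiring a log2 change of 1 or more in size as well left 1918 and 1380. DESeq2, RLE scaling, no filter on counts, counts divided by 4, thinning and the 9 wild type libraries alone kept both counts within 1.5 times. Leaving out 1 library gave 3620 to 3994 higher and 3662 to 4100 lower. An alternative chosen after seeing the data kept naive library 4 and left out naive libraries 1 to 3, which gave 1922 higher and 2331 lower, with the lone library assumed to vary like the other groups. The replicate block left 3896 higher and 3912 lower and 52 genes with an interaction, and same-numbered libraries of wild type groups did not deviate together. It ended the calls for Fos (adjusted p = 0.0781), Ikbkg (0.084) and Lcn2 (0.0501) and made one for Casp1, and took the falls in the adhesion, IL-1 family and NF-kB lists from 2, 2 and 1 to 0, 1 and 0. The 68 interaction calls became 240 with DESeq2, 108 on log2(TPM + 1), 38 on log2(TPM + 0.1), 38 with no filter on counts, 34 to 82 with 1 library left out and 10 with naive library 4 alone. Of the genes named, a reversal was seen for Chil3, at -0.036 with library totals only and -0.0558 in each limma fit, none past the threshold. With naive library 4 as the lone naive library, 18 genes named kept their direction but no longer passed, among them Il15, Mitf, Hspa1a, Hspa1b, Ltc4s, H2-DMa, Ifit1 and Pgf. Shares by locus length moved when limited to 5 TPM or more, to 25.3% higher and 32.1% lower under 5 kb, and to 34.2% and 7.39% over 200 kb. In the last 150 bases of the promoter window the kB share was 9.46% for genes higher by at least 2 and 5.05% for genes that did not pass. Without Cd2, the log2 ratio of the summed lymphocyte markers turned to 0.20.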
